A study of Mus musculus with 2 samples.

Results

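Receptors of natural killer (NK) cells were followed across the leukocytes of diseased mouse kidneys: Klrk1, Klrd1, Klrc1, Klrc2, Klrb1c, Klre1, Klra4, Klra8, Ncr1 and Cd160, 10 of the 32285 genes in the deposited matrices. They were chosen by symbol, with earlier results of these data known, so that their levels below are a description and carry no test. The label under which they were grouped, NK-type lectin receptors on lymphocytes, held in part. The 8 Klr genes encode C-type lectin-like proteins, whereas Ncr1 and Cd160 encode receptors of the immunoglobulin type, and UMIs of Klrk1 and Klrd1 were not limited to lymphocytes. A UMI is a molecular tag that counts each captured RNA molecule once.

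NK cells carry paired activating and inhibitory receptors and respond to the balance of their signals. Klrk1 (NKG2D) is an activating receptor for stress-induced relatives of MHC class I. Klrd1 (CD94) reaches the surface with a partner, such as the inhibitory Klrc1 (NKG2A) or the activating Klrc2 (NKG2C). With such a partner it binds Qa-1, the product of H2-T23. Many of these genes lie in one block of the genome, the NK gene complex, and activated CD8 T cells can express several of them.

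The cells were leukocytes of B6 mouse kidneys at week 2 of the disease labelled AAN CKD: aristolochic acid nephropathy, in which a plant toxin leads to chronic kidney disease. Viable CD45-positive cells, CD45 being a surface protein of leukocytes, were sorted and captured with 3′ chemistry as 2 hashed samples, marked with barcoded antibodies and pooled in 1 capture. No untreated kidney was analysed here, the age of the mice was not given, and the labels do not say that the hashed samples are separate animals. The sample title also names week 1 and a single mouse. In each pair of values the former is hashed sample 1 and the latter hashed sample 2. Because cells are not replicates, no test was made, and every interval is an exact 95% interval for counting error only.

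The matrices held 3315 and 3700 barcodes, of which 0 were shared, with 20743037 and 25314154 UMIs. After filtering, 3089 and 3467 cells remained, with medians of 5669 and 6568 UMIs per cell. A label also calls the cells mesenchymal stem cells. Ptprc, which encodes CD45, had a UMI in 84.5% and 87.1% of cells, while the mesenchymal genes Pdgfra, Pdgfrb and Col1a1 each had one in at most 0.808%. Eng and Nt5e, also used as mesenchymal markers but not limited to such cells, had one in 7.38% and 9.86% and in 7.22% and 3.29% of cells.

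Cells were gated on UMIs of other genes, and no gate used a member. The NK gate required no UMI of Cd3d, Cd3e, Cd3g, Trac, Cd4, Cd8a or Cd8b1, a low level of the macrophage genes C1qa, C1qb and C1qc, and at least 3 of 8 cytotoxic or NK regulator genes. It held 26 and 14 cells (medians of 2838 and 3626 UMIs). The CD8 T gate held 281 and 167 cells (3519 and 3587 UMIs) and the CD4 T gate 296 and 116. T cells without a UMI of Cd4, Cd8a or Cd8b1, called double-negative here, numbered 304 and 143. Dendritic cells with at least 2 UMIs of Cd209a numbered 122 and 269 and were deeper, with medians of 8723 and 9400 UMIs. Macrophages rich in C1q, 1188 and 1821 cells, were taken as cells that should lack the members. They served as a background, but whether their UMIs of members came from free RNA was not tested. Of Klrk1 they held 46 and 60 UMIs in 32 and 45 cells, with up to 4 and 5 UMIs in 1 cell. Of the 40 cells in the NK gate, 10 had exactly the required 3 genes, and 7 further cells were a single gene short.

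The gates were checked on further markers, although several of these had formed the gates. Of the 9 NK markers, 7 were NK gate genes, and the other two, Ccl5 and Xcl1, were detected in the NK gate of both hashed samples. Of the T cell markers that no gate used, Cd5 and Cd6 were at 0 there. Lat and Cd28 were detected there in both hashed samples and Bcl11b in hashed sample 2. Levels are given in CPM, the UMIs of a gene per 1000000 UMIs of the gate. All T cell markers together summed to 102 and 167 CPM in the NK gate, against 3326 and 3421 CPM in the CD8 T gate. All B cell markers were at 0 in the NK gate. In the Cd209a gate the 6 dendritic markers other than Cd209a, Flt3 among them, were all detected. The same 6 were also detected in C1q macrophages, so that detection alone does not tell these gates apart. Of the 7 dendritic markers, Cd209a included, 5 reached 50 CPM in the Cd209a gate and 2 in C1q macrophages. Their summed levels were 15045 and 14746 CPM against 7642 and 6020 CPM. Of 8 macrophage markers 7 also reached 50 CPM in the Cd209a gate. Summed, the macrophage markers stood at 1740 and 1742 CPM there, against 54802 and 44323 CPM in C1q macrophages. The lymphocyte gates held such markers too. In the NK gate the macrophage markers summed to 1450 and 1316 CPM and the dendritic markers to 1914 and 961 CPM. In the CD8 T gate these sums were 1196 and 1410 CPM and 388 and 578 CPM. The part of these markers in the levels of the Cd209a, NK and CD8 T gates was not tested.

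**Figure D1:**
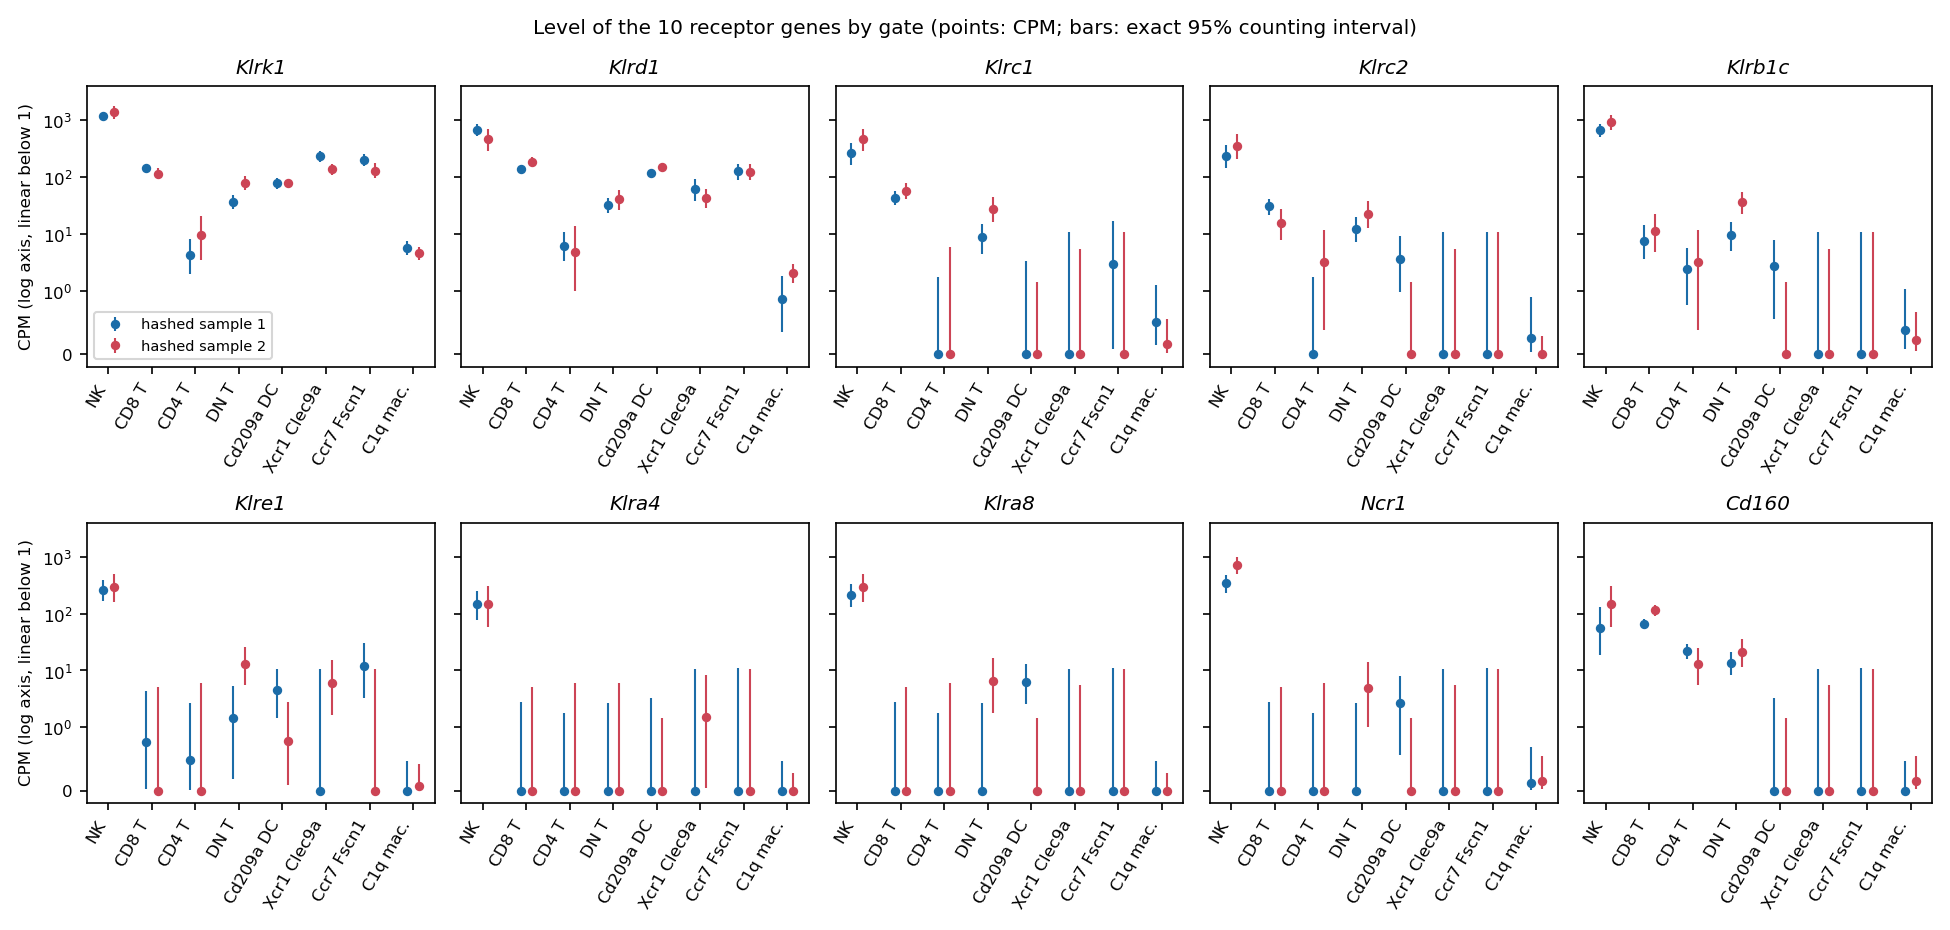
Level of each of the 10 receptor genes in CPM (vertical axis, log scale above 1 and linear below) in 8 sets of cells (horizontal axis), with hashed sample 1 in blue and hashed sample 2 in red; bars are exact 95% counting intervals. Klrk1 and Klrd1 stand between 43.4 and 234 CPM in the 3 dendritic sets, while Ncr1 and Klra4 are near 0 outside the NK gate.

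In the reference genome, 8 of the 10 members lay together on chromosome 6 (GRCm38), between 128778485 and 130129898, a span of 1351.4 kb. Klre1 (129577905 to 129585827), Klrd1 (129591782 to 129598775), Klrk1 (129610323 to 129623864), Klrc2 (129647496 to 129660689) and Klrc1 (129666015 to 129678973) followed each other, and Klra4 and Klra8 lay farther along. Ncr1 lay on chromosome 7 (4337724 to 4345164) and Cd160 on chromosome 3 (96798763 to 96829351). Cd160 overlapped Pdzk1 on the other strand, and Klrb1c overlapped the gene model Gm44511 on its own strand, so that reads there may be split. Of 411 windows of 90 bases in the last 500 bases of the longest Klrc1 transcript, where 3′ reads fall, 134 (32.6%) also occurred in a transcript of Klrc2. Counts of these 2 genes are therefore less certain than those of the other 8, whose windows occurred in no other gene.

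The promoters of a gene high in NK cells alone and of one shared with dendritic and CD8 T cells are shown because these patterns are the main contrast among the members. They run from 250 bases before to 50 bases after the annotated start (RefSeq, GRCm38.p6), 5′ to 3′ on the gene's strand. Capitals mark TGTGGT or its other-strand form ACCACA, the core letters bound by Runx factors, of which Runx3 is expressed by NK and CD8 T cells.
Ncr1, chr7:4337465-4337764, plus strand: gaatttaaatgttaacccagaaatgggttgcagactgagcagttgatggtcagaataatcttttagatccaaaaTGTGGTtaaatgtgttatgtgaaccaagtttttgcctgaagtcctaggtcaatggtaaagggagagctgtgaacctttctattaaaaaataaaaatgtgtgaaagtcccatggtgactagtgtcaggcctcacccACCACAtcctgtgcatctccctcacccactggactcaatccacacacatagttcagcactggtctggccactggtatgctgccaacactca
Klrk1, chr6:129623815-129624114, minus strand: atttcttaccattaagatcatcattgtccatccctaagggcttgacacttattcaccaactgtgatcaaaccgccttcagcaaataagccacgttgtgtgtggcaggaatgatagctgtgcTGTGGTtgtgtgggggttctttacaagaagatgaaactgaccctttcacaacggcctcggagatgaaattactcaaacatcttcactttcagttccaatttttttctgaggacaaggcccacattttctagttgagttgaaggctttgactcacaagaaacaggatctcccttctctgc
The Ncr1 window held the letters at 2 places and the Klrk1 window at 1. Searched on both strands, TGTGGT occurred in 5506 of 32851 promoters (16.8%) and in 10 of the 14 promoters listed for 9 members. These belonged to 7 members: Cd160, Klrb1c, Klrc1, Klrc2, Klre1, Klrk1 and Ncr1. The 2 promoters listed for Ncr1 overlap, as do the 2 of Klrc2, so that the same sites are counted in both. The promoters are thus not independent, and nothing is read from their share. The T-box letters TCACACC, or GGTGTGA on the other strand, occurred in 3.98% of promoters and, among the members, in 1 promoter of Cd160. The forms can overlap, as TGTGGT ends and GGTGTGA begins with GGT. A match shows only that the letters are present.

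In the NK gate every member was detected in both hashed samples. Klrk1 stood at 1167 CPM (interval 952 to 1415) and 1379 CPM (1066 to 1754), and 24 of 26 and 14 of 14 cells had a UMI of it. Klrd1 stood at 679.6 CPM (519 to 875) and 459.5 CPM (288 to 696). Klrc1 stood at 261 and 459.5 CPM and Klrc2 at 238 and 355 CPM. In these cells both Klrc1 and Klrc2, an inhibitory and an activating partner of Klrd1, were thus detected. The Klrc1 value of hashed sample 2 rested on 22 UMIs, and with each cell thinned to 1000 UMIs a single one of its 14 cells kept a UMI of Klrc1.

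Klrb1c, which encodes NK1.1, the antigen by which NK cells of B6 mice are commonly stained, stood at 668 and 939.9 CPM and had a UMI in 23 of 26 and 13 of 14 cells. Ncr1, the activating receptor NKp46, stood at 339.8 CPM (229 to 485) and 710.2 CPM (492 to 992). Its intervals did not overlap between the hashed samples. Klre1, a lectin-like receptor that pairs with Klri1 or Klri2, was at 261 and 292 CPM, in 14 of 26 and 8 of 14 cells. Klri2 was detected in the NK gate at 181 and 62.7 CPM.

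Klra4 (Ly49D) and Klra8 (Ly49H) are activating receptors of the Ly49 family, whose members are switched on in subsets of NK cells. Klra4 stood at 147 and 146 CPM, but its 13 UMIs of hashed sample 1 came from 4 cells and its 7 UMIs of hashed sample 2 from 1 cell. Klra8 stood at 215 and 292 CPM, from 8 and 4 cells. Of the 12 cells with Klra8, 2 also had Klra4. With so few cells these shares are loosely set: Klra8 was seen in 30.8% (14.3 to 51.8) and 28.6% (8.39 to 58.1) of the cells.

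Cd160, a membrane-anchored receptor for Tnfrsf14, had 5 and 7 UMIs in the NK gate, or 56.6 CPM (18.4 to 132) and 146 CPM (58.8 to 301).

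A single cell of hashed sample 1 passed both the NK and the Cd209a gate. It was not marked as a doublet and held 15980 UMIs, among them 15 of Klrk1, 5 of Klrd1 and 19 of other members. Without it Klrk1 in the NK gate of hashed sample 1 was 1217 CPM, Klrd1 761 CPM and Ncr1 373 CPM, and the number of members counted as higher did not change in any comparison of the NK gate.

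NK cells were next set against CD8 T cells, the other cytotoxic lymphocytes of the sort. Genes reaching 50 CPM in either gate, in each hashed sample, were called measured. Those whose level differed 1.5-fold or more, with the same sign in both hashed samples, were counted as higher or lower. All 10 members were measured and 9 were higher in NK cells. Except for Klrk1, Klrd1 and Cd160, they passed the filter only through the NK gate, so that their direction was set by it. By the same rule 267 of 2856 measured genes (9.35%) were higher, and since the members were chosen on these data nothing is read from their share. The median log2 ratio, with 10 CPM added, was 3.46 and 3.90 over the members and 0.02 and -0.01 over all measured genes.

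Among the lectin receptors the difference was smallest for the members that CD8 T cells also expressed. Klrd1 was 4.94-fold (3.63 to 6.65) and 2.46-fold (1.49 to 3.87) higher in NK cells, Klrc1 6.05-fold (3.56 to 10.0) and 7.96-fold (4.52 to 13.7), and Klrk1 8.21-fold (6.39 to 10.5) and 11.9-fold (8.51 to 16.7). Klrc2 was 7.74-fold (4.34 to 13.4) and 22.9-fold (10.1 to 54.2) higher. Klrb1c, at only 7.68 and 11.3 CPM in CD8 T cells, was 87.0-fold (44.1 to 191) and 83.5-fold (38.9 to 205) higher.

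Ncr1, Klra4 and Klra8 had 0 UMIs in all 448 cells of the CD8 T gate. Against the level that 3 UMIs per hashed sample would give, Ncr1 was at least 147-fold and at least 168-fold higher in NK cells, Klra8 at least 93.4-fold and 69.3-fold, and Klra4 at least 63.9-fold and 34.6-fold. Klre1 had a single UMI in the CD8 T gate, in hashed sample 1. Cd160 was the exception. It stood at 66.1 CPM (52.9 to 81.6) and 114 CPM (90.5 to 142) in CD8 T cells, and its ratio of NK to CD8 T cells, 0.857-fold (0.271 to 2.08) and 1.28-fold (0.50 to 2.77), lay on both sides of 1.

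**Figure D2:**
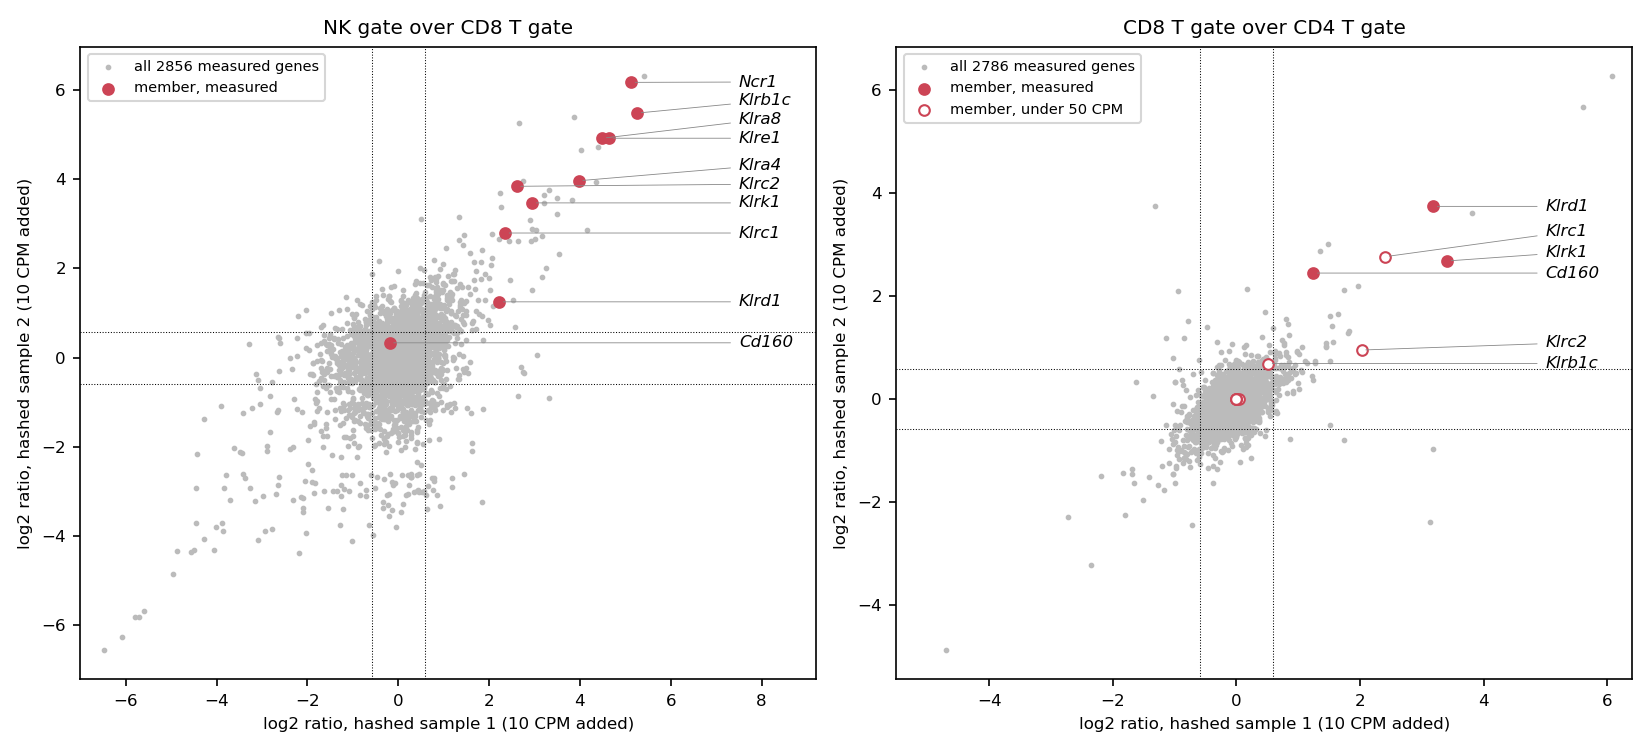
Log2 ratio of CPM with 10 CPM added, hashed sample 1 (horizontal) against hashed sample 2 (vertical), for NK over CD8 T cells (left) and CD8 T over CD4 T cells (right); grey points are all measured genes, red points the members, open circles members under 50 CPM, and dotted lines mark 1.5-fold. On the left 9 members lie beyond 1.5-fold in both hashed samples and Cd160 lies near 0; on the right Klrk1, Klrd1 and Cd160 lie beyond it.

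Klrk1, Klrd1 and Cd160 were higher in CD8 T than in CD4 T cells, and these were the only 3 members measured in that comparison, each passing the filter through the CD8 T gate alone. By this rule 56 of 2786 genes (2.01%) were higher in CD8 T cells. Klrk1 stood at 142 CPM (122 to 164) and 115 CPM (91.8 to 143) in CD8 T cells and at 4.33 and 9.63 CPM in CD4 T cells, a difference of 32.9-fold (16.9 to 73.0) and 12-fold (5.28 to 33.6). Klrd1 stood at 138 CPM (118 to 159) and 187 CPM (157 to 222) against 6.25 and 4.81 CPM. C1q macrophages had 5.75 and 4.56 CPM of Klrk1, a background whose intervals overlapped those of CD4 T cells. Their 0.875 CPM (0.352 to 1.80) and 2.05 CPM (1.35 to 2.99) of Klrd1 lay below CD4 T cells in hashed sample 1 (3.33 to 10.7) and overlapped them in hashed sample 2 (0.993 to 14.1).

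Klrc1 was at 43.0 and 57.7 CPM in CD8 T cells, just short of being measured in hashed sample 1, and at 0 UMIs in all 412 CD4 T cells. Against 3 UMIs per hashed sample this made it at least 29.8-fold and 12-fold higher in CD8 T cells. Klrc2 was at 30.7 and 15.5 CPM against 0 and 3.21 CPM. UMIs of Klrd1, Klrc1 and Klrc2 were therefore found in CD8 T cells and were nearly absent from CD4 T cells.

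Cd160 was spread over the T cell gates. It stood at 22.1 CPM (16.2 to 29.5) and 12.8 CPM (5.54 to 25.3) in CD4 T cells, where 19 of the 46 UMIs of hashed sample 1 came from a single cell. CD8 T cells were 2.99-fold (2.07 to 4.37) and 8.88-fold (4.3 to 21.3) higher. Over all cells, 59.9% of the 279 UMIs of Cd160 fell in the CD8 T gate and 19.4% in the CD4 T gate, and its count was 0 in the Cd209a gate.

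Against CD4 T cells, all 10 members were measured through the NK gate alone, so that their being higher there, beside 10.8% of 2965 genes, was set by the filter and only the sizes are informative. Klrk1 was 270-fold (137 to 606) and 143-fold (62.4 to 404) higher, and Cd160, with the smallest difference, 2.56-fold (0.794 to 6.42) and 11.4-fold (3.52 to 35.9). Scaling by TMM factors in place of total UMIs took Cd160 below the rule there (mean log2 ratio 1.69 against 1.91), as did a stricter NK gate of at least 4 genes (1.31). TMM also moved the median of all genes, from -0.03 to -0.31 for NK over CD8 T and from -0.13 to -0.36 for NK over CD4 T. With it the share of genes counted as higher fell from 54.9% to 23.7% and from 44.2% to 22.1% of all genes counted. The other 9 members passed the rule under both scalings.

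CD4 T cells were also split by a UMI of Foxp3, the regulator of regulatory T cells. The 31 and 12 cells with Foxp3 had 1 UMI of Klrk1 and 0 of the other 9 members. The remaining 265 and 104 cells held Klrk1 at 4.26 and 11.1 CPM, Klrd1 at 6.92 and 5.53 CPM and Cd160 at 24.5 and 14.7 CPM. With 201670 and 80832 UMIs in the Foxp3 cells, 3 UMIs would make 14.9 and 37.1 CPM, more than the Klrk1 and Klrd1 levels of the remaining cells, so that those were not detectable.

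T cells without Cd4 or Cd8 transcripts had Klrk1 and Klrd1 levels between those of CD8 T and CD4 T cells. Klrk1 stood at 36.3 CPM (27.0 to 47.9) and 80.0 CPM (59.2 to 106), Klrd1 at 32.7 and 40.8 CPM, Klrc1 at 8.72 and 27.7 CPM and Klrb1c at 9.45 and 35.9 CPM. Klrk1, Klrc1, Klrb1c and Klre1 were higher in hashed sample 2, with intervals that did not overlap. Klre1 stood at 1.45 CPM (0.176 to 5.25) and 13.1 CPM (5.64 to 25.7), from 2 and 8 UMIs. How large a share of all genes differs in this way between the hashed samples was not counted, so that nothing is read from these members. In hashed sample 2 Klrb1c (22.5 to 54.4) also lay above its level in CD8 T cells (4.86 to 22.2). The 7 and 7 cells of this gate with a UMI of Trdc, the constant segment of the delta T cell receptor chain, held Klrk1 at 263 and 412 CPM, Klrd1 at 307 and 165 CPM, Klrc1 at 307 and 165 CPM and Klrb1c at 87.8 and 412 CPM. The cells without Trdc held Klrk1 at 32.5 and 66.3 CPM and Klrc1 at 3.69 and 22.1 CPM. Each value of the Trdc cells rests on 2 to 10 UMIs. Where a T cell lacks a Cd4 or Cd8a UMI, absence of the gene and missed detection cannot be told apart.

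CD8 T cells were uneven in the members. Cells with a Klrk1 UMI, 83 and 34 at medians of 3665 and 3494 UMIs, held more Klrd1, at 208 and 327 CPM, than the 198 and 133 cells without, at 109 and 158 CPM and medians of 3492 and 3591 UMIs. They also held more Klrc1 (87.9 and 106 CPM against 24.8 and 47.6 CPM), Klrc2 (48.0 and 40.9 against 23.8 and 10.2 CPM) and Gzmb, the protease granzyme B (197 and 327 against 52.9 and 91.8 CPM). Before this split the whole CD8 T gate held 56 and 41 UMIs of Klrc1 and 40 and 11 of Klrc2. The Klrc2 difference in hashed sample 2 therefore rests on few UMIs, and whether the Klrc and Gzmb differences exceed counting error was not tested. Gzmb is the only effector gene given for this split. The share of all genes that differ in this way was not counted, so that nothing is read from Gzmb. Cd160, at 58.6 and 123 CPM against 69.1 and 112 CPM, was alike in both sets.

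Thinning each cell to 1000 UMIs removes differences in depth. Of the CD8 T cells with Klrk1, 13 of 48 then had Klrd1 (27.1%, 15.3 to 41.8), against 53 of 398 of those without (13.3%, 10.1 to 17.1), both hashed samples together and with intervals that overlapped. Before thinning the shares were 57.8% and 27.3% in hashed sample 1. In hashed sample 2 they were 17 of 34 cells (32.4 to 67.6) and 36.8% (28.6 to 45.6), with intervals that overlapped. Klrk1 had a UMI in 25.9% of the CD8 T cells with Cd160 (18.0 to 35.2) and in 26.2% of those without (21.6 to 31.2). Thinned, these shares were 1 of 30 cells (3.33%, 0.0844 to 17.2) and 11.3% (8.42 to 14.7).

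**Figure D3:**
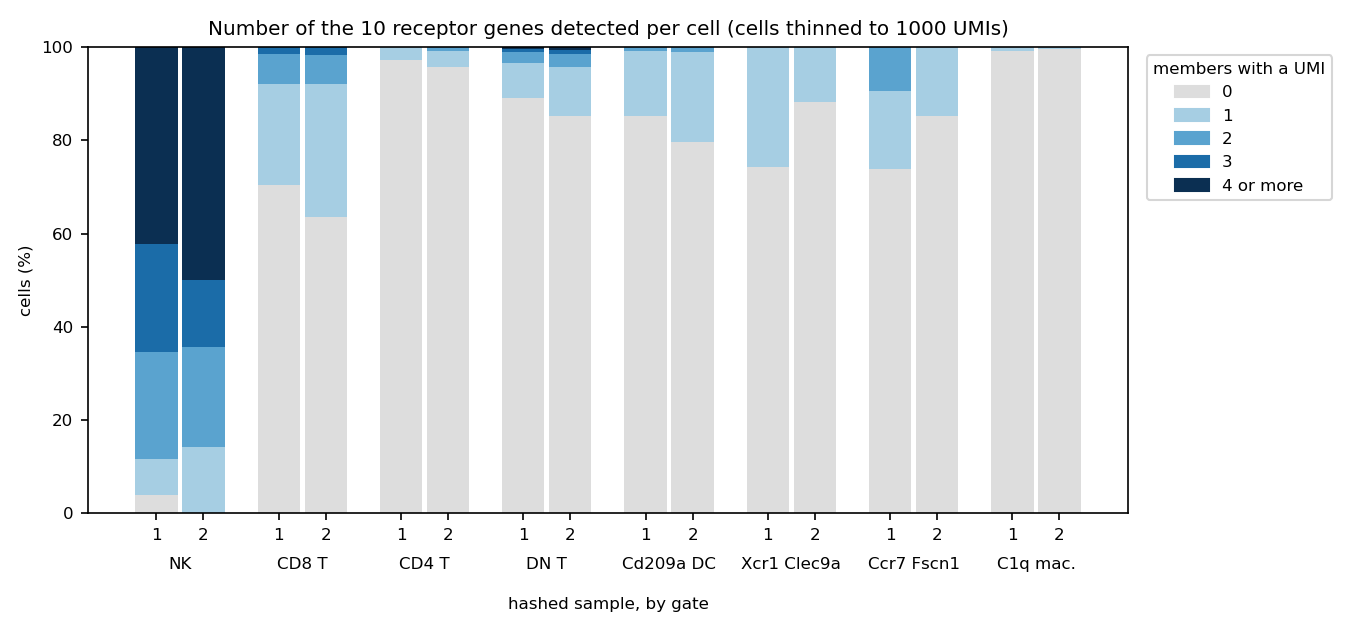
Share of cells (vertical axis, percent) with a UMI of 0, 1, 2, 3 or at least 4 of the 10 receptor genes, for each hashed sample of 8 sets of cells, every cell thinned to 1000 UMIs. In the NK gate 42.3% and 50% of cells had at least 4 members, while in the CD4 T gate 97.3% and 95.7% had none.

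At equal depth NK cells stood apart by the number of members per cell. Of the 40 NK cells, 35 (87.5%) had at least 2 members, 18 (45.0%) at least 4 and 1 none. Of the 446 CD8 T cells deep enough to be thinned, 32.1% had at least 1 member and 7.85% at least 2, with at most 3 in any cell. In the CD4 T gate 3.16% had at least 1, in the double-negative T gate 12.2%, in the Cd209a gate 18.7% and among C1q macrophages 0.652%. Only 1.02% of Cd209a cells had at least 2 members.

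Dendritic cells with Cd209a carried Klrk1 and Klrd1 and almost no other member. Klrk1 stood at 78.1 CPM (62.6 to 96.3) and 77.7 CPM (67.2 to 89.4), and Klrd1 at 118 CPM (98.3 to 140) and 153 CPM (138 to 169). A UMI of Klrk1 was found in 36.1% and 34.6% of these cells and a UMI of Klrd1 in 38.5% and 52.4%, against 2.69% and 2.47% and 0.589% and 1.37% of C1q macrophages, whose median depths were 6274 and 6794 UMIs. Thinned to 1000 UMIs, Klrd1 was found in 6.56% and 14.5% of Cd209a cells and 0.175% and 0.169% of macrophages.

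Against C1q macrophages Klrk1 and Klrd1, measured through the Cd209a gate alone, were higher in Cd209a cells, beside 8.57% of 2764 genes. Klrk1 was 13.6-fold (9.39 to 19.9) and 17.0-fold (12.7 to 23.1) higher and Klrd1 134-fold (63.4 to 341) and 74.3-fold (50.3 to 114). These levels were below those of NK cells, in which Klrk1 was 14.9-fold (11.1 to 20.1) and 17.7-fold (13.2 to 23.6) higher, and Klrd1 5.78-fold (4.18 to 7.90) and 3.01-fold (1.86 to 4.62). All 10 members were lower in Cd209a cells than in NK cells, beside 22.9% of 2891 genes, but the 8 others had passed the filter only through the NK gate, which set their direction.

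Klrc1 and Klrc2, the partners of Klrd1 among the members, were never or rarely detected in these cells. Klrc1 had 0 UMIs in all 391 Cd209a cells, which, read against 3 cells, allows a share of up to 2.46% and 1.12% of cells with a UMI, while 188 of the cells had Klrd1 and 137 had Klrk1. Klrc2 had 4 UMIs, all in 1 cell. Cd160 and Klra4 also had 0 UMIs. The 8 members other than Klrk1 and Klrd1 together had 24 UMIs in 6 cells, and 19 of these were in the cell that had also passed the NK gate.

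Of the NK markers, Nkg7, Gzma and Prf1 were at or near 0 in the Cd209a gate apart from the cell of both gates. Without the cell of both gates, Klrk1 stood at 65.6 and 77.7 CPM and Klrd1 at 115 and 153 CPM, while Nkg7 stood at 0 and 0.394 CPM, the granzyme gene Gzma at 0 and 0.789 CPM and the perforin gene Prf1 at 0. In the NK gate Nkg7 stood at 974 and 1546 CPM and Gzma at 5833 and 3822 CPM. With that cell, Gzma in the Cd209a gate of hashed sample 1 was 141 CPM, Nkg7 8.08 CPM and Prf1 8.98 CPM. These genes helped form the NK gate, so that leaving out the cell in part set their 0 in hashed sample 1. Of the 9 NK markers Eomes was at 0 in both hashed samples of the Cd209a gate. With the cell included, the summed level of the 9 was 363 and 139 CPM, against 13932 and 15435 CPM in NK cells. Most of that sum was Ccl5, a chemokine that dendritic cells also express, at 186 and 135 CPM.

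Within the Cd209a gate, Klrk1 and Klrd1 could be in the same cell. Klrd1 had a UMI in 62.8% of the cells with Klrk1 (54.1 to 70.9), at a median of 9952 UMIs, and in 40.2% of those without (34.1 to 46.5), at 8684 UMIs. After thinning the shares were 4 of 28 cells (14.3%, 4.03 to 32.7) and 43 of 363 (11.8%, 8.71 to 15.6), a difference not detectable at this depth.

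**Figure D4:**
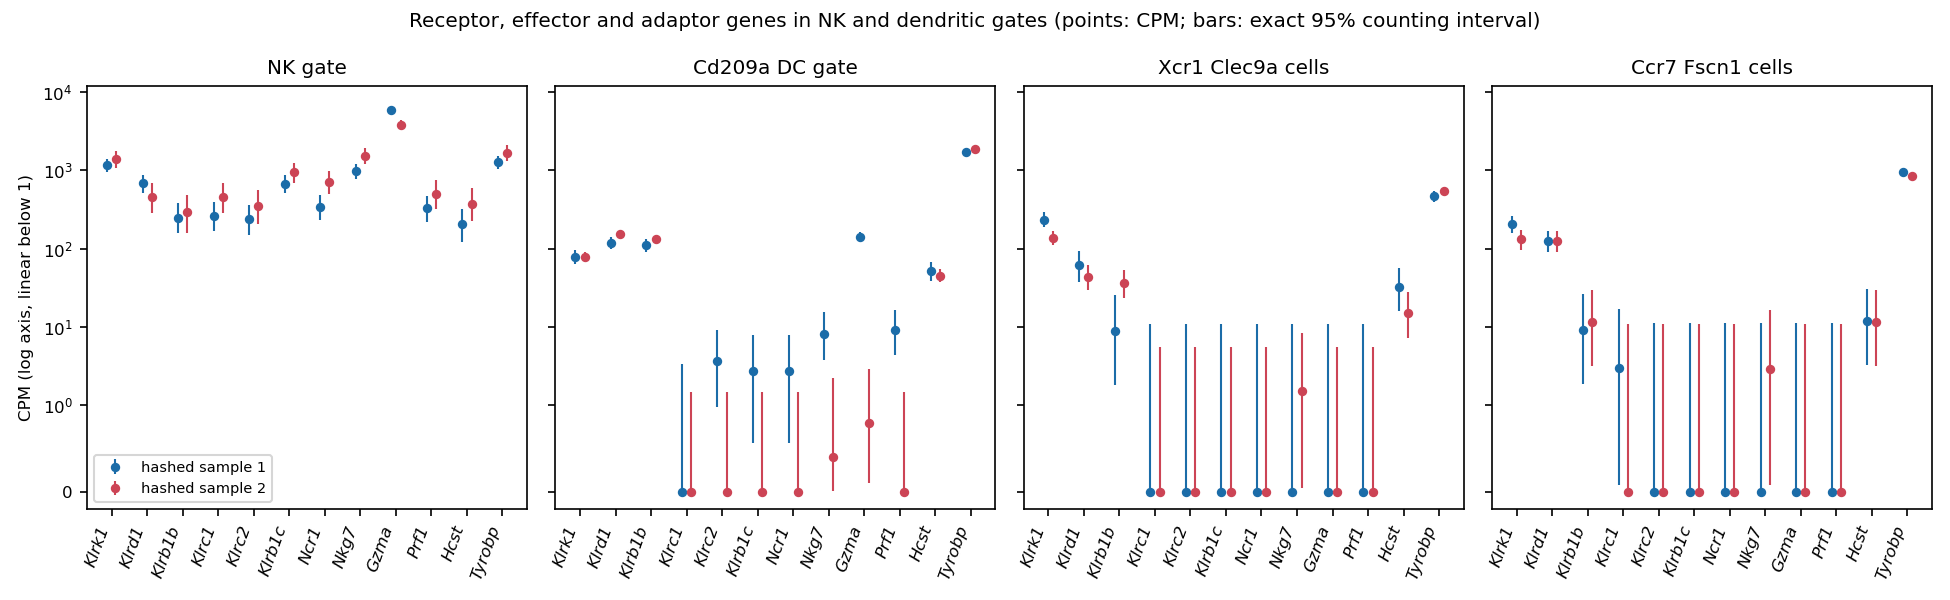
Level in CPM (vertical axis, log scale above 1 and linear below) of receptor genes, cytotoxic genes and signalling adaptors (horizontal axis) in NK cells and 3 dendritic sets, with hashed sample 1 in blue, hashed sample 2 in red and exact 95% counting intervals. Klrk1 and Klrd1 are present in every panel, whereas Nkg7, Gzma and Prf1 are high in NK cells alone apart from Gzma of the Cd209a gate in hashed sample 1, which is 0 without the cell of both gates.

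Further sets of cells outside the gates carried Klrk1 too. They were picked after the data were seen, by Xcr1 and Clec9a (35 and 59 cells, markers of type 1 dendritic cells) and by Ccr7 and Fscn1 (43 and 36 cells, markers of migratory dendritic cells). Klrk1 stood at 234 CPM (186 to 291) and 138 CPM (111 to 169) in the Xcr1 Clec9a cells and at 203 CPM (158 to 258) and 131 CPM (95.2 to 175) in the Ccr7 Fscn1 cells. By the 1.5-fold rule Klrk1 was higher in Xcr1 Clec9a cells than in Cd209a cells, beside 8.55% of 2560 genes. In both sets its intervals lay above those of Cd209a cells.

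Klrd1 did not follow Klrk1 there. In the Xcr1 Clec9a cells it was at 60.8 CPM (37.6 to 92.9) and 43.4 CPM (29.0 to 62.3), lower than in Cd209a cells, beside 14.0% of genes, and in the Ccr7 Fscn1 cells it was at 126 CPM (90.6 to 170) and 125 CPM (90.3 to 168), with intervals that overlapped those of Cd209a cells. Klrk1 exceeded its Cd209a level in the set where Klrd1 fell short of its own. In both sets Gzma and Prf1 had 0 UMIs, and Nkg7 had 0 and 1 UMIs. Cells of the NK gate, which these genes helped form, had been left out of both sets, so that the low counts were in part set by this. Ccl5, another NK marker, stood at 602 and 7.48 CPM in the Xcr1 Clec9a cells and at 3186 and 3327 CPM in the Ccr7 Fscn1 cells. Klrc1 had 0 UMIs in the Xcr1 Clec9a cells and 1 UMI in the Ccr7 Fscn1 cells.

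Counted by UMIs, Klrk1 and Klrd1 were therefore not mainly NK transcripts in this sort. Of 1740 UMIs of Klrk1 in 783 cells, 9.71% fell in the NK gate, 15.3% in the CD8 T gate, 32.8% in the 3 dendritic sets and 30.4% in cells outside all sets. Of 1523 UMIs of Klrd1, 5.38% fell in the NK gate, 20.5% in the CD8 T gate and 42.9% in the dendritic sets. By contrast the NK gate, 40 of 6556 cells, held 89.2% of the 37 UMIs of Klra8, 87.0% of the 23 of Klra4, 73.6% of the 87 of Ncr1, 50% of the 74 of Klre1 and 49.3% of the 211 of Klrb1c. Klrc1 lay between, with 51.3% of 189 UMIs in CD8 T cells and 23.8% in NK cells, and so did Klrc2, with 36.7% and 27.3% of 139. In these shares the cell of both gates counts in each.

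The order of gates differed among the members. Klrk1 was highest in NK cells, followed by Xcr1 Clec9a and Ccr7 Fscn1 cells, whose intervals overlapped, and CD8 T cells, whose interval overlapped theirs in hashed sample 2 and that of Ccr7 Fscn1 cells in hashed sample 1. Cd209a cells came next, their intervals lying below those of CD8 T cells in both hashed samples, and double-negative T cells overlapped them in hashed sample 2. Klrd1 was highest in NK cells as well. CD8 T, Cd209a and Ccr7 Fscn1 cells followed, and no pair of these 3 sets had separate intervals for Klrd1 in either hashed sample. Xcr1 Clec9a and double-negative T cells, which overlapped each other, came after them, though in hashed sample 1 the interval of Xcr1 Clec9a cells also reached that of Ccr7 Fscn1 cells. For Cd160, NK and CD8 T cells could not be ordered. The other 7 members were highest in NK cells in both hashed samples.

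Of 19 other lectin receptors of NK cells 18 were in the files. Klrb1a, Klrb1b, Klrb1f, Klri2, Klra3, Klra7 and Klra9 were measured and higher in NK than in CD8 T cells, beside 9.35% of genes. All 7 passed the filter through the NK gate alone, which set their direction. Klrb1f stood at 227 and 585 CPM against 6.15 and 4.22 CPM. Klrg1, a receptor of mature NK and T cells, had 0 UMIs in NK cells, where 3 UMIs would make 34.0 and 62.7 CPM, and 9.22 and 4.22 CPM in CD8 T cells. Klrb1b, an inhibitory relative of Klrb1c, was, like Klrk1 and Klrd1, higher in Cd209a cells than in macrophages. It stood at 110 and 132 CPM in Cd209a cells, against 13.4 and 15.7 CPM in macrophages, and at 249 and 292 CPM in NK cells. Against macrophages it passed the filter through the Cd209a gate alone, which set its direction. Unlike Klrk1 it was low in Xcr1 Clec9a cells (8.68 and 35.9 CPM) and in Ccr7 Fscn1 cells (8.97 and 11.6 CPM).

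Among receptors of the immunoglobulin type, Cd244a was higher in NK cells than in CD8 T cells, and Slamf7 and Crtam were lower, of 5 measured, beside 9.35% and 7.67% of all genes. Cd244a stood at 125 and 146 CPM in NK cells and 4.61 and 4.22 CPM in CD8 T cells. In that comparison Cd244a passed the filter through the NK gate alone, which set its direction. It was also present in Cd209a cells, at 72.7 and 59.96 CPM, against 5.75 and 8.29 CPM in macrophages.

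The adaptors through which the activating members signal differed between some of the gates. Hcst (DAP10), a partner of Klrk1, stood at 204 and 376 CPM in NK cells and 402 and 432 CPM in CD8 T cells. Between these gates it was counted as neither higher nor lower. In Cd209a cells it stood at 51.2 and 45.0 CPM. Tyrobp (DAP12), the partner of Klra4, Klra8 and Klrc2, stood at 1269 and 1671 CPM in NK cells but 80.7 and 135 CPM in CD8 T cells, while Cd209a cells had 1738 and 1862 CPM. Of 10 measured adaptors and kinases, Tyrobp, Fcer1g and Inpp5d were higher in NK than in CD8 T cells and Cd247 and Lck lower, beside 9.35% and 7.67% of genes. Fcer1g, an adaptor of Ncr1, stood at 1495 and 1692 CPM in NK cells and 63.8 and 101 CPM in CD8 T cells.

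Of 11 effector genes, Gzma, Gzmb, Prf1, Fasl and Ccl3 were higher in NK than in CD8 T cells, and Gzmk and Ifng were lower, beside 9.35% and 7.67% of all genes. Gzma, Gzmb and Prf1 were among the 8 genes that formed the NK gate, so that their direction is in part set by it. Ifng, encoding interferon gamma, stood at 45.3 and 41.8 CPM in NK cells, 4 and 2 UMIs, and at 117 and 107 CPM in CD8 T cells. It passed the filter through the CD8 T gate alone, which set its direction. Of 9 measured regulators Eomes and Id2 were higher, beside the same 9.35%, Eomes again being a gate gene. Runx3 stood at 261 and 230 CPM in NK cells and 220 and 221 CPM in CD8 T cells.

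Ligands of the members were next looked up. Of the NKG2D ligands Raet1d, Raet1e and H60b were at most 3.26 CPM in every set of cells, and Ulbp1 was at 5.25 and 10.1 CPM in macrophages. H2-T23, which encodes the ligand of Klrd1 with its partners, stood at 204 and 188 CPM in NK cells, 192 and 227 CPM in CD8 T cells and 164 and 155 CPM in Cd209a cells. It was higher in Xcr1 Clec9a cells than in Cd209a cells, at 440 and 281 CPM, as 1 of 4 measured ligands, beside 8.55% of 2560 genes. None of the 5 measured ligands was counted between NK and CD8 T cells. Against CD4 T cells Clec2d, the ligand of Klrb1b, was higher in NK cells, at 159 and 313 CPM against 102 and 152 CPM, as 1 of 4 measured. Tnfrsf14, which encodes the ligand of Cd160, was at most 5.98 CPM in every set.

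Likeness of pattern was measured by Pearson r of log2 CPM with 10 CPM added, over 12 points, the 6 gates in each hashed sample. The points share a capture and differ in depth, and r is given as a description over 3619 candidate genes. Among the 8 genes most like the mean of the members were Spry2 (0.965), Klrb1f, Ugcg, Klra3, Polr3d, Emid1 and Otulin (0.953). All of these were highest in the NK gate, and how far r rests on the NK points was not tested. Some had few UMIs there: Emid1 stood at 90.6 and 62.7 CPM, where 3 UMIs would make 34.0 and 62.7 CPM. The genes most like Klrd1 were Dock10 (0.914), Arl6ip5, Tmed5, Add3, Il18rap, Dennd4a, Malt1 and Tpt1 (0.857). Since r does not measure the size of differences, genes that vary little can be among them. Tpt1 ran from 8599 to 11007 CPM and Tmed5 from 98.0 to 167 CPM, whereas Klrd1 ran from 0.875 to 679.6 CPM. Il18rap, a subunit of the interleukin 18 receptor, had 306 and 355 CPM in NK cells, 79.9 and 73.2 CPM in CD8 T cells, 97.9 and 80.9 CPM in Cd209a cells and 9.63 and 14.0 CPM in macrophages.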

How the data were processed

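The authors deposited 1 matrix of whole-number UMI counts for each of the 2 hashed samples, without normalization. Per the file headers it was made with Cell Ranger 6.1.1, whereas Cell Ranger 6.0 and Seurat 4.3.0 are listed in the submitters' processing notes, with mm10 as the build. Barcodes with under 200 genes, under 500 UMIs or over 10% mitochondrial UMIs were dropped (414 in all), and 45 likely doublets (0.682%) were removed, 40 by Scrublet in scanpy 1.11.5 run on the whole capture and 5 by their hashtags. Cells were gated on raw UMIs: T cells had at least 2 UMIs of Cd3d, Cd3e and Cd3g together. The gates other than macrophages allowed fewer than 30 UMIs of C1qa, C1qb and C1qc per 10000, and macrophages had at least 60.

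UMIs were summed per gate and hashed sample and scaled to CPM. Intervals are exact Poisson (levels), Clopper-Pearson (shares) and conditional (ratios) at 95%, and a count of 0 is read against 3 counts. The fold rule was tested on simulated data. Members and gene lists were chosen with earlier results of these data known. Named genes are the members, the 8 genes most like their mean and like Klrd1, and list genes of at least 50 CPM in 1 gate; others named, such as Klrg1 and the ligands, were chosen after their values were seen. One gene that the rule names is not reported here. Gate cut-offs, doublets, mitochondrial limits, thinning, TMM scaling (edgeR 4.0.16, R 4.3.3), pseudocount, filter and fold were varied. RefSeq promoters had no entry for Klrd1. Visium expression was not analysed here. Versions were Python 3.11.15, numpy 2.4.6, scipy 1.17.1, pandas 2.3.3 and matplotlib 3.10.9.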

Additional observations from a re-analysis of the deposited data

How the results depend on the processing

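With 2 hashed samples of 1 capture, no difference has a replicate behind it, and the NK gate of 40 cells limits precision. Of the log2 ratios of members recomputed under the alternatives, 355 kept their direction and their side of the 1.5-fold rule and 2 fell below it, both of Cd160 in NK over CD4 T cells. None reversed. Of the levels, 201 moved by less than their counting interval and 15 by more, mostly with thinning, where Klrc1 in the NK gate of hashed sample 2 was 71.4 CPM in place of 459.5. The numbers of members counted were within 1.5 times of the main number except that without a filter 5 members, in place of 3, were higher in CD8 T than in CD4 T cells. Leaving out the cell that passed both the NK and the Cd209a gate, an alternative chosen after seeing the data, left 9, 10 and 2 members higher in NK over CD8 T, NK over CD4 T and Cd209a over macrophages.

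Counts over all genes moved more. For NK over CD8 T cells, 267 genes higher and 219 lower became 110 and 355 with TMM factors, 577 and 505 with a filter of 20 CPM, 665 and 1399 without a filter and 100 and 112 at 2-fold. For CD8 T over CD4 T, 56 and 77 became 101 and 126 at 20 CPM, 147 and 163 without a filter and 19 and 17 at 2-fold. For NK over CD4 T, 320 and 404 became 666 and 767 at 20 CPM, 750 and 1519 without a filter and 151 and 200 at 2-fold, and 165 were higher with TMM. For Cd209a cells over macrophages, 237 and 348 became 453 and 680 without a filter and 134 and 185 at 2-fold, and 547 were lower at 20 CPM. Filters and fold limits change these counts by construction, and for TMM the cause was not tested. No paired analysis was possible because the labels give no replicates.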
